A study of Mus musculus with 8 samples.

Results

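Pulmonary neuroendocrine cells are rare epithelial cells of the conducting airways, and 9 genes that mark them were followed through fetal mouse lungs with and without tracheal occlusion (TO). The genes were taken by symbol: *Calca*, *Chga*, *Chgb*, *Syp*, *Resp18*, *Uchl1*, *Insm1*, *Scg5* and *Pcsk1*. All 9 matched 1 gene identifier each, of 55385 in the count files. The study collected bulk RNA from lungs of C57BL/6 fetuses at E18.5 and sequenced 4 control and 4 TO libraries, called here control 1 to 4 and TO 1 to 4. In TO fetuses the trachea had been tied off at E16.5 together with 1 carotid artery and 1 jugular vein, and the dams were given progesterone 1 day before collection. Whether control fetuses had any operation is not given in the sources used here. Neither the labels nor the methods give a dam or litter, so the p-values measure only the spread between these libraries.

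Neuroendocrine cells sit in the airway lining singly or in innervated clusters called neuroepithelial bodies. They store peptides and amines in dense core granules and release them by regulated exocytosis, and they are known as airway sensors of oxygen, stretch and irritants. They appear early in lung development and make up a very small share of the cells of a whole lung. Most of their granule and vesicle genes are also used by neurons and by other endocrine cells.

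The 8 libraries differed widely in depth, and 1 of them could not measure these genes. TO 1 held 270078 read pairs on genes, against 22822261 to 35002061 in the other 7. One read pair in TO 1 was worth 3.44 CPM (counts scaled to library size with TMM factors), so the 3 reads taken as the detection floor came to 10.3 CPM. All 9 genes together drew 11 read pairs in TO 1 and 608 to 1124 in each of the other libraries. Those 11 were 4 of *Uchl1*, 2 each of *Syp* and *Insm1*, and 1 each of *Calca*, *Chgb* and *Scg5*, with none of the other 3 genes. TO 1 was therefore left out of the levels given here, apart from its reads. The tests compared controls 1, 2 and 4 with TO 2, 3 and 4, the specimens the study used, and control 3 was added as an alternative. The reads carry no molecular identifiers, so a counting error covers only part of the error of a value. A second feature of the series touches some results. Atrial myocardium genes were low in controls 1 and 2, where *Nppa*, which encodes atrial natriuretic peptide, stood at 0.438 and 1.59 CPM, against 48.7 to 110 CPM in the other 5 deep libraries.

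The promoters show one thing that part of the set shares apart from its cell type. Core sites of the cAMP response element, the sequence bound by CREB family factors, lay on either strand within 250 bases before the RefSeq start of *Chga*, *Chgb*, *Scg5* and *Pcsk1*. That was 4 of the 8 promoters of the set in the RefSeq table (GRCm38.p6). In *Chgb* the sites overlapped an exon of the gene annotation, and its stretch is not shown. The same 6 letters, TGACGT, were in 6.47% of 32851 promoters of that table. The stretches around the sites outside annotated exons are shown for 3 of the genes, all granule genes, with the core sites in capitals and the strand of the gene read 5′ to 3′.
Chga, chr12:102554867-102554932, plus strand: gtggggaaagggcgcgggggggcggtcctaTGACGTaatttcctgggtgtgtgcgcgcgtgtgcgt
Scg5, chr2:113829231-113829296, minus strand: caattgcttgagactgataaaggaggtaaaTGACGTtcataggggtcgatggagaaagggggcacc
Pcsk1, chr13:75089749-75089825, plus strand: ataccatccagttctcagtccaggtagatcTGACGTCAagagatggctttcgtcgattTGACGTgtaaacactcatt
The first base of the site lay 44 bases before the start in *Chga* and 175 bases before it in *Scg5*. *Pcsk1* had 1 site at 78 bases, inside the full palindrome TGACGTCA, and another at 50 bases. The palindrome reads as a core site on both strands, and it was found in *Chgb* and *Pcsk1*, against 1.55% of all promoters searched. The E-box CAGCTG, a letter pattern bound by basic helix-loop-helix factors, was in the promoters of *Chga* and *Resp18* and in 13.0% of all. A match of letters is a description and not evidence of a bound site.

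The 9 genes spanned a wide range of levels in whole lung. Per kilobase of exon and averaged over the 7 deep libraries, *Uchl1*, a cytosolic deubiquitinating enzyme also abundant in neurons, was highest at 8.74 ± 2.63 CPM per kilobase (SD, n = 7). It lay at percentile 73.4 of the 22506 genes with a length and at least 5 reads in 3 or more of these libraries. *Calca* followed at 3.36 ± 0.400 CPM per kilobase, percentile 54.2. Both stood above the next gene in the order in 7 of 7 libraries. *Chga* at 0.632 ± 0.526 and *Pcsk1* at 0.628 ± 0.170 CPM per kilobase came next and could not be ordered, since *Chga* was the higher of the pair in 4 libraries and the lower in the rest. *Syp* and *Scg5* came after them at 0.458 ± 0.139 and 0.393 ± 0.194 CPM per kilobase. *Insm1*, *Chgb* and *Resp18* were the lowest, at 0.269 ± 0.158, 0.231 ± 0.203 and 0.214 ± 0.233 CPM per kilobase. From *Chga* down, no gene stood above its neighbour in more than 5 of 7 libraries. *Chgb* had no read in 1 of the 7 libraries and *Resp18* none in 3, and every other gene was detected in all 7.

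**Figure D1:**
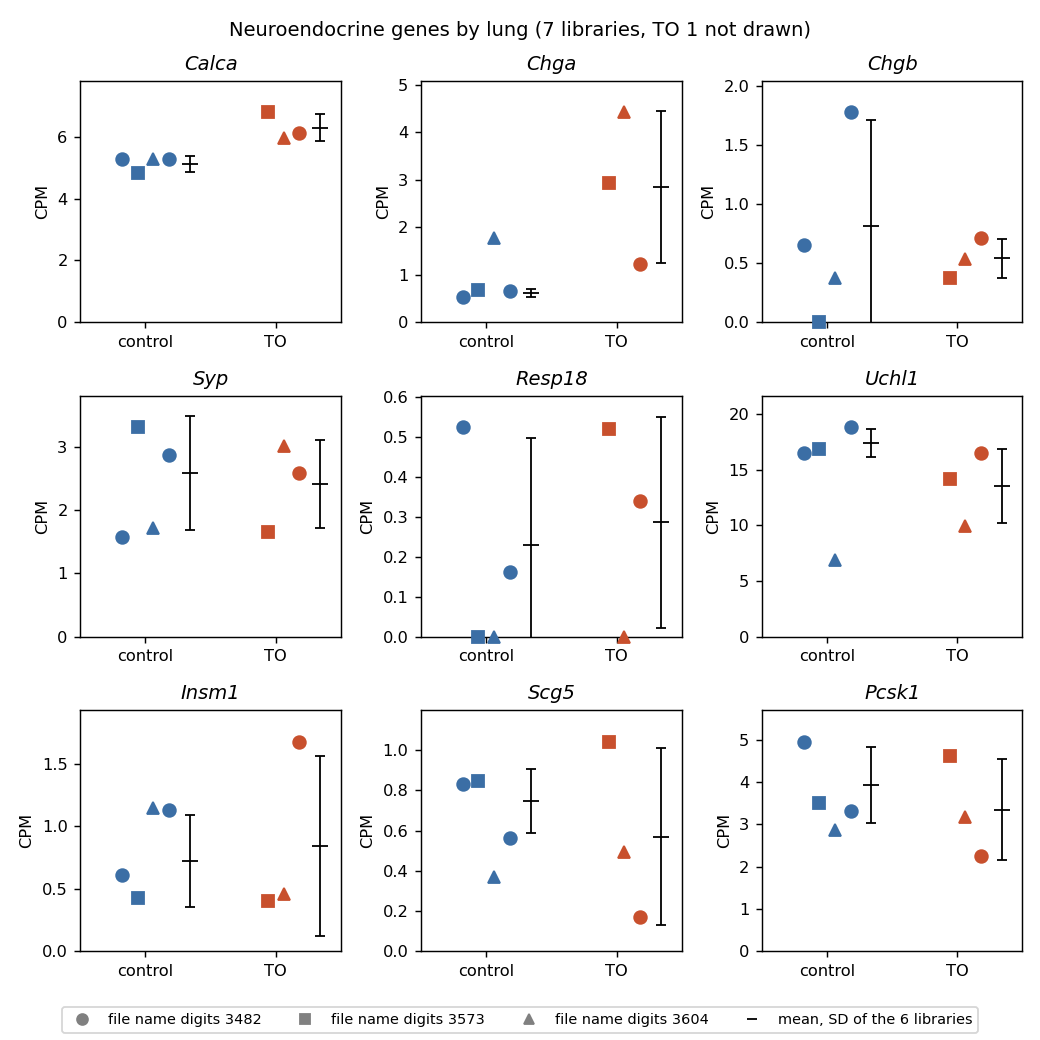
CPM of each of the 9 genes (vertical axes, from 0) in the 4 control and 3 deep TO lungs, with marker shape for the digits that file names share and black bars for mean and SD over the 6 tested libraries (3 per group, bars below 0 not drawn). Calca in the TO lungs lay above all controls, Chga lay above the 3 tested controls but overlapped control 3, and the groups of most other genes overlapped.

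*Calca*, which encodes both calcitonin and the neuropeptide CGRP, stood a little above the controls in each deep TO lung, without passing the test. Its gene lies at chr7:114631478-114636357 (GRCm38), and its counts do not separate the calcitonin from the CGRP transcript. *Calca* stood at 5.30 CPM in control 1, 4.84 in control 2, 5.28 in control 3 and 5.29 in control 4. TO 2 had 6.80 CPM, TO 3 5.99 and TO 4 6.13. Every deep TO lung was above every control, and the controls lay within a narrow band. Over the 6 tested libraries the means were 5.14 ± 0.262 and 6.31 ± 0.435 CPM (SD, n = 3 each), a ratio of 1.23. The fitted log2 fold change was 0.29 (SE 0.23), with an adjusted p of 0.912 in edgeR's quasi-likelihood test. The exact two-sided permutation test gave 0.1, the smallest p that 3 against 3 libraries can give. With control 3 added it gave 0.0571, again the smallest possible for 4 against 3. The difference in means was 1.16 CPM. Counting error alone gave an SD of 0.448 CPM for a single control library and 0.454 CPM for a single TO library. The SD of each group was below that, so the narrow band of the controls does not show a small spread between lungs. The direction was the same in all 19 alternatives, with log2 fold changes of 0.23 to 0.36 apart from 0.63 when libraries were scaled to an epithelial gene list. Since every deep TO lung lay above every control, leaving out deep libraries could not turn it. *Calcb*, the paralog that encodes a second CGRP, was at 0.277 CPM per kilobase. STAR tallied reads that mapped to several places apart from the gene counts. How many reads of the near-identical parts of *Calca* and *Calcb* this left out was not examined.

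*Chga* had the largest log2 fold change of the set in the tested libraries. It encodes chromogranin A, an acidic protein that helps form dense core granules, and lies at chr12:102554969-102565028. *Chga* stood at 0.526 CPM in control 1, 0.682 in control 2, 1.78 in control 3 and 0.646 in control 4, from 12, 21, 53 and 16 reads. TO 2 had 2.92 CPM (101 reads), TO 3 4.42 (107 reads) and TO 4 1.22 (43 reads). The 3 tested controls were all below the 3 TO lungs, but control 3 was above TO 4. The means of the tested groups were 0.618 ± 0.0819 and 2.85 ± 1.60 CPM (SD, n = 3 each), a ratio of 4.62. In the edgeR fit the log2 fold change was 2.18 (SE 0.54) with an unadjusted p of 0.00283 and an adjusted p of 0.907. DESeq2 on the same 6 libraries gave 2.21 (SE 0.60) with an adjusted p of 0.0983, past the threshold of 0.1. edgeR without TO 4, the lowest TO lung, gave 2.56 (SE 0.47) with an adjusted p of 0.0917. The other alternatives gave 1.22 to 2.55 with no call. The lowest came from controls 3 and 4 against TO 2, 3 and 4 (SE 0.71), which leaves out the controls with few atrial reads. With all 8 libraries the log2 fold change was 1.54 (SE 0.60), at an unadjusted p of 0.0245.

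Within each group, *Chga* was highest in the library where parathyroid hormone RNA was found. *Pth* had 86 reads in TO 3 (3.55 CPM) and 6 in control 3 and none in the other 6. Parathyroid chief cells are known to make chromogranin A. *Gcm2*, the defining transcription factor of the parathyroid, was at 0 reads in all 8 libraries. The list of 8 thyroid and parathyroid genes summed to 3.74 to 8.01 CPM in the 4 controls and 3.88 to 9.04 CPM in the 3 deep TO lungs, and of its 3 tested genes none had an unadjusted p under 0.05. TO 2, with no *Pth* read, still stood at 2.92 CPM of *Chga*. Without TO 3 the log2 fold change of *Chga* was 1.74 (SE 0.58). The part of parathyroid RNA in the *Chga* difference was not tested further.

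Among all genes, calls were few with these 6 libraries. edgeR called none of 21859 genes (0.0%) at an adjusted p under 0.1, and so none of the 9, while 1123 genes (5.14%) had an unadjusted p under 0.05, of the 9 genes *Chga* alone. DESeq2 called 44 genes, 40 of them (0.183%) higher in TO, and again *Chga* alone of the 9. Without TO 4, edgeR called 144 of 20801 genes (0.692%). With all 8 libraries, 530 genes (2.35%) had an unadjusted p under 0.05, again 1 of the 9. Of the 9 genes, 4 had a log2 fold change above 0, against 49.3% of all genes tested, and their median was -0.11. *Calca* and *Chga* did not overlap between the tested groups in the higher direction, which held for 5.09% of all genes, and *Uchl1* did not in the lower, which held for 5.81%. *Calca* alone of the 9 kept its TO lungs above all 4 controls, as 2.25% of all genes did. In bulk RNA, fewer cells of a type and less RNA per cell cannot be told apart.

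*Uchl1* was the member with the most reads and stood lower in the TO lungs of the tested set, without passing the test. It stood at 16.6 CPM in control 1, 16.9 in control 2, 6.92 in control 3 and 18.8 in control 4. TO 2 had 14.2 CPM, TO 3 9.95 and TO 4 16.5. Control 3 was the lowest of all, so the groups separated only without it. The tested means were 17.4 ± 1.25 and 13.6 ± 3.33 CPM (SD, n = 3 each), and the log2 fold change was -0.36 (SE 0.21; edgeR adjusted p 0.907). With control 3 added it was -0.12 (SE 0.33), and with controls 3 and 4 against TO 2, 3 and 4 it was 0.08 (SE 0.43). An antisense gene, *Uchl1os*, overlaps its exons, and the counts do not use strand.

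The other granule genes of the set did not follow *Chga*. *Chgb*, which encodes the second major granin, stood at 0.657, 0, 0.370 and 1.78 CPM in controls 1 to 4 and at 0.376, 0.537 and 0.710 CPM in TO 2, 3 and 4. The controls enclosed all 3 TO values, and the log2 fold change was -0.58 (SE 1.20). *Resp18*, a granule protein of uncertain role, was close to the detection limit, with 12, 0, 0 and 4 reads in controls 1 to 4 and 18, 0 and 12 reads in TO 2, 3 and 4. At 0 reads the floor of 3 reads allows up to 0.0974 CPM in control 2, 0.101 in control 3 and 0.124 in TO 3. Its log2 fold change was 0.37 (SE 1.59), and an antisense gene, *Gm28902*, overlaps its exons.

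The peptide processing genes of the set were likewise mixed. *Pcsk1*, the prohormone convertase that cuts peptide precursors in granules, stood at 4.95, 3.51, 2.86 and 3.31 CPM in controls 1 to 4. TO 2, 3 and 4 had 4.60, 3.18 and 2.24 CPM. The highest value was a control and the lowest a TO lung, with full overlap between. The log2 fold change was -0.23 (SE 0.35; edgeR adjusted p 0.964). *Scg5*, which encodes 7B2, a chaperone of the convertase *Pcsk2*, stood at 0.832, 0.845, 0.370 and 0.565 CPM in controls 1 to 4 and at 1.04, 0.495 and 0.170 CPM in TO 2, 3 and 4. The last value rests on 6 reads. Its log2 fold change was -0.39 (SE 0.78).

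*Syp* and *Insm1* overlapped as well. *Syp*, which encodes the vesicle membrane protein synaptophysin, stood at 1.58, 3.31, 1.71 and 2.87 CPM in controls 1 to 4 and at 1.65, 3.01 and 2.58 CPM in TO 2, 3 and 4. Low and high libraries were found in both groups, and the log2 fold change was -0.11 (SE 0.41). An antisense gene, *Gm14703*, overlaps its exons. *Insm1*, a zinc finger factor of the neuroendocrine fate, stood at 0.613, 0.422, 1.14 and 1.13 CPM in controls 1 to 4 and at 0.405, 0.454 and 1.67 CPM in TO 2, 3 and 4. TO lungs held its highest and its lowest value, and the log2 fold change was 0.24 (SE 0.77).

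The file names carry digits that some controls and TO lungs share, without a stated meaning. Controls 1 and 4 share digits with TO 4, control 2 with TO 2, and control 3 with TO 3. Within these 3 sets *Calca* was higher in TO each time, by ratios of 1.16, 1.41 and 1.13. That follows from every deep TO lung lying above every control, so it adds nothing to the separation already given. *Chga* was also higher in TO each time, by ratios of 2.08, 4.29 and 2.48, although the pooled groups overlapped. Its tested controls lay below all deep TO lungs, so only the set of control 3 and TO 3 could have differed. *Uchl1* had ratios of 0.933, 0.843 and 1.44, so the direction differed between sets. None of the other 6 genes was higher in TO in all 3 sets. The share of all genes higher in TO in all 3 sets was not computed. With the digits as a block over all 8 libraries, *Chga* had a log2 fold change of 1.39 (SE 0.48; edgeR adjusted p 0.873).

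**Figure D2:**
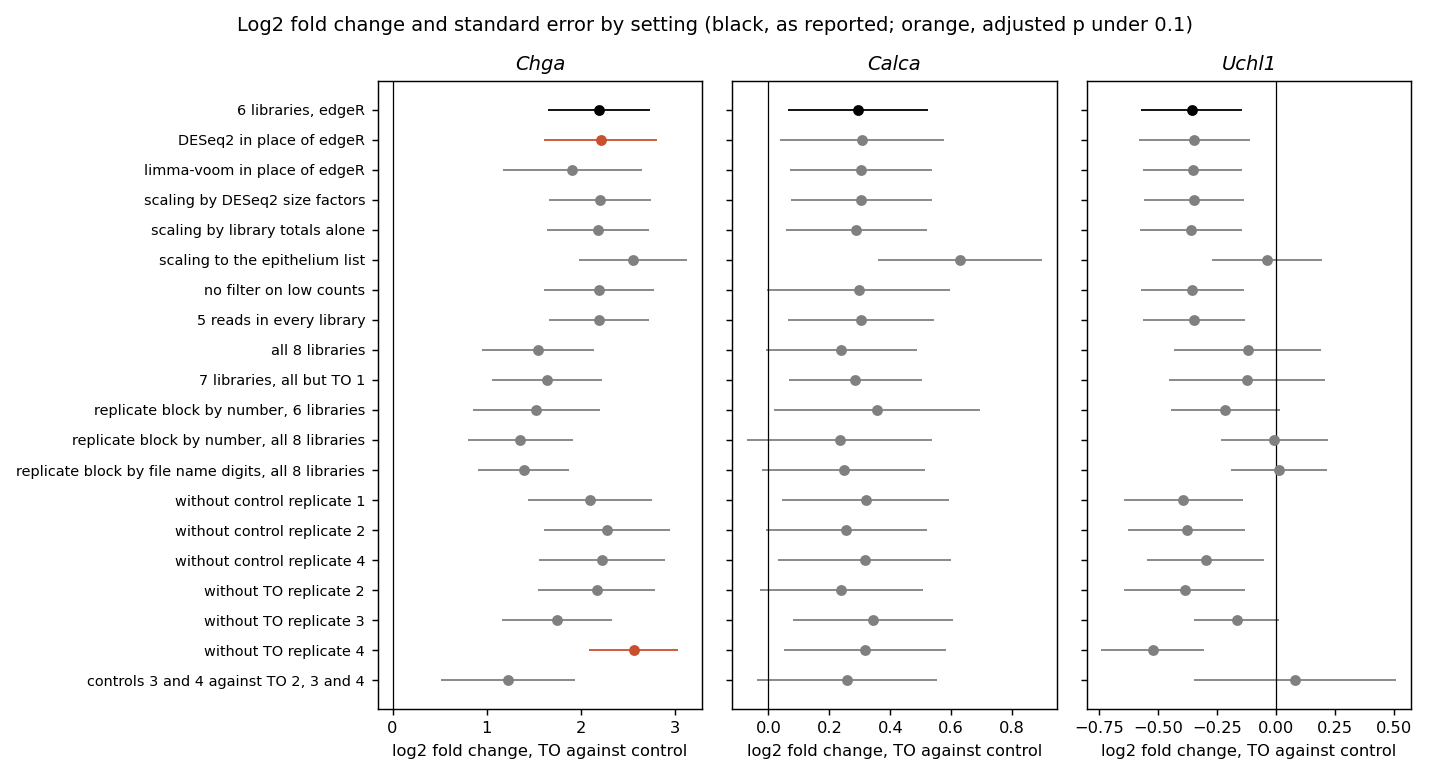
Log2 fold change of TO against control with its standard error (horizontal axes, a different range for each gene) for Chga, Calca and Uchl1 under each setting (vertical axis). Chga ranged from 1.22 to 2.56 and passed an adjusted p of 0.1 with DESeq2 and without TO 4, Calca stayed above 0, and Uchl1 lay on both sides of 0.

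The libraries ranked differently from gene to gene. TO 2 was the highest of the 7 libraries for *Calca* and *Scg5*, TO 3 for *Chga*, and TO 4 for *Insm1*. Control 1 was highest for *Resp18* and *Pcsk1*, control 2 for *Syp*, and control 4 for *Chgb* and *Uchl1*. Summed over the 9 genes, the libraries stood at 31.5, 30.5, 20.4 and 34.6 CPM in controls 1 to 4 and at 32.5, 28.0 and 31.6 CPM in TO 2, 3 and 4. The sums overlapped, and control 3 was lowest. Without *Uchl1* the sums were 15.0, 13.6, 13.5 and 15.7 CPM in controls 1 to 4 and 18.3, 18.1 and 15.1 CPM in TO 2, 3 and 4, with TO 4 below control 4.

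Likeness between genes was measured as the root mean square difference of standardised log2 CPM over the 7 deep libraries, where 0 means the same pattern. These are descriptions over libraries that all genes share. Within the set, *Scg5* and *Pcsk1* were most alike at 0.396, followed by *Calca* and *Chga* at 0.776. All other pairs among the 7 genes with at least 5 reads in every one of these libraries were at 1.19 or above. Over all 16913 genes with that many reads, the patterns nearest to *Calca* were those of *Id4* (0.166), *Kcnc2* (0.306), *Lrrc73* (0.318), *Gm26574* (0.337) and *Lpxn* (0.362). *Id4*, an inhibitor of basic helix-loop-helix factors, stood at 9.65 to 11.1 CPM in the 4 controls and 12.1 to 14.8 CPM in the 3 TO lungs. Nearest to *Chga* were *A2ml1* (0.175), *Steap4* (0.200), *Acss2* (0.208), *Gm26387* (0.212) and *H2-K1* (0.215). *Steap4*, a metalloreductase, had 10.5 to 16.5 CPM in controls and 14.5, 20.7 and 27.9 CPM in TO 4, 2 and 3. None of these 10 belongs to the neuroendocrine list. Nearest to the mean pattern of the set were *Ttc26* (0.261), *Insyn1* (0.262), *Vash1* (0.269), *Stmn3* (0.269) and *Lhfpl2* (0.277).

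**Figure D3:**
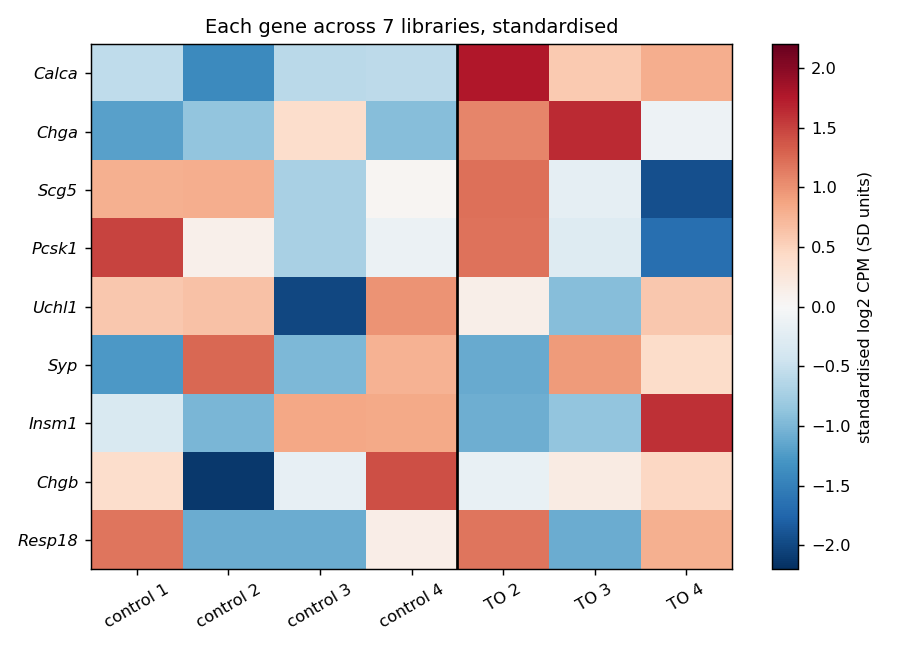
Standardised log2 CPM (colour, in SD units within each gene) of the 9 genes (rows) in the 7 deep libraries (columns, controls left of the black line). Calca was high in TO 2, 3 and 4, and Chga in TO 2 and 3 but not in TO 4 (-0.11, below control 3 at 0.39). Scg5 and Pcsk1 shared a pattern that was high in TO 2 and low in TO 4, and the remaining rows followed neither pattern.

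A wider list of 59 neuroendocrine genes, the 9 included, set these values among other genes of the same cell type. Of its genes, 51 passed the filter on reads. edgeR called none of them at an adjusted p under 0.1, and the smallest adjusted p was 0.907. Of the 51, 31 had a log2 fold change above 0, with a median of 0.29, against 49.3% and a median of -0.0045 over all genes tested. The median of the list was 0.12 with controls 3 and 4 against TO 2, 3 and 4, and 0.59 with libraries scaled to the epithelium list, which raised the median of all genes to 0.34. At an unadjusted p under 0.05 there were 6 genes, against 5.14% of all genes tested. With controls 3 and 4 against TO 2, 3 and 4 there were 2 of 49, against 342 of all 21147 genes tested. Of the 6, *Chga*, *Cpe* and *Prox1* were higher in TO and *Dll1*, *Robo1* and *Piezo2* lower. The tested groups did not overlap for 5 of the 51 genes in the higher direction and 6 in the lower. Over all genes tested those shares were 5.09% and 5.81%. Set against all 4 controls, 3 genes of the list did not overlap in the higher direction, where 2.25% of all genes did not. The share in the lower direction was not computed for 4 controls. *Grp*, a peptide gene that marks these cells in the lung, was detected in all 7 deep libraries, and *Neurod1*, *Nkx2-2*, *Rfx6* and *Nmu* had no read in any of them.

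Among the regulators, 6 genes other than *Insm1* were tested, 3 with a positive and 3 with a negative log2 fold change. *Dll1*, a Notch ligand, was at 10.9 to 14.3 CPM in the 4 controls and 7.58 to 8.83 CPM in the TO lungs, a log2 fold change of -0.46 (SE 0.19; edgeR adjusted p 0.907). *Isl1*, a LIM homeodomain factor, did not overlap either, at 0.876 to 1.86 CPM in controls and 2.02 to 2.19 CPM in TO lungs, with a log2 fold change of 0.76 (SE 0.44). *Hes6*, which promotes differentiation against Notch, was at -0.23 (SE 0.14). *Prox1*, a homeodomain factor also present in lymphatic endothelium and heart, was at 0.85 (SE 0.36). It stood at 12.1 and 7.54 CPM in controls 1 and 2, at 28.9 and 19.9 CPM in controls 3 and 4 and at 16.8 to 31.8 CPM in the TO lungs.

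Among the peptides, *Grp*, which encodes gastrin-releasing peptide, had a log2 fold change below 0, without passing the test. It stood at 5.12, 7.31, 2.19 and 4.60 CPM in controls 1 to 4 and at 5.27, 2.27 and 3.15 CPM in TO 2, 3 and 4. The groups overlapped, and the log2 fold change was -0.67 (SE 0.37; edgeR adjusted p 0.907), or 0.08 (SE 0.52) with controls 3 and 4 against TO 2, 3 and 4. *Cartpt*, a neuropeptide precursor, was at 1.06 (SE 1.27) and *Calcb* at 1.58 (SE 1.73) on the log2 scale, both from few reads. Of the 5 tested peptide genes other than *Calca*, 2 were above 0.

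Among the granule genes, all 9 tested besides those of the set had a log2 fold change above 0, with a median of 0.75, and none was called, while 49.3% of all genes tested were above 0. With controls 3 and 4 against TO 2, 3 and 4, 8 of the 9 were above 0 with a median of 0.32, and without control 4 the median was 1.16. The most abundant were *Pam*, the enzyme that amidates peptides, and *Cpe*, the carboxypeptidase that trims them, at 44.2 and 28.4 CPM per kilobase. *Cpe* stood at 32.7, 31.5, 99.9 and 79.1 CPM in controls 1 to 4 and at 82.9, 85.9 and 107 CPM in TO 2, 3 and 4. *Pam* stood at 188, 132, 796 and 683 CPM in controls 1 to 4 and at 525, 669 and 689 CPM in TO 2, 3 and 4. For both genes, controls 1 and 2 were far below every other library, and controls 3 and 4 lay among or above the TO lungs. Controls 1 and 2 are also the libraries low in atrial genes, whose list of 6 summed to 404 and 245 CPM there, against 2596 and 2073 CPM in controls 3 and 4 and 1513 to 2365 CPM in the 3 TO lungs. Atrial myocytes are known to hold much of the *Pam* enzyme. The part of atrial RNA in these values was not tested further. The log2 fold changes of *Cpe* and *Pam* were 0.94 (SE 0.33) and 0.90 (SE 0.52) in the tested libraries. With controls 3 and 4 against TO 2, 3 and 4, they were 0.04 (SE 0.19) and -0.23 (SE 0.19), and that of *Prox1* was -0.03 (SE 0.31). Without control 4, edgeR called 52 of 21094 genes. These included *Cpe* at 1.52 (SE 0.16) and *Pam* at 1.98 (SE 0.21), with adjusted p of 0.0304 and 0.0260. *Ptprn*, a granule membrane protein, was at 0.55 (SE 0.54).

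The genes of amines and GABA showed no call. *Ddc*, which makes serotonin and dopamine from their precursors, had a log2 fold change of 0.29 (SE 0.45). *Slc18a1*, a vesicular monoamine transporter, stood at 2.27 to 3.19 CPM in the 4 controls and 3.55 to 3.68 CPM in the TO lungs, without overlap, at 0.44 (SE 0.31; edgeR adjusted p 0.909). Its relative *Slc18a2* was at -0.18 (SE 0.27). *Slc18a2* is shared with mast cells and platelets. Of 6 tested mast cell and megakaryocyte genes all were above 0, and their sum was 21.7 to 30.1 CPM in the 4 controls and 34.7 to 38.0 CPM in the TO lungs. *Tph1*, the serotonin synthesis enzyme of non-neuronal cells, did not pass the filter.

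Among the genes of vesicle release, 6 of 12 tested genes were above 0 and the median was 0.01. The most abundant were *Vamp2* at 0.02 (SE 0.13), *Cplx2* at -0.35 (SE 0.23) and *Stx1a* at -0.04 (SE 0.17) on the log2 scale. Of the surface and cytosolic markers, *Cd24a* was at 0.34 (SE 0.16), and *Robo1*, *Robo2* and *Piezo2* stood lower in TO. Scaling to the epithelium list put these genes at 0.015, 0.078 and 0.025, still below the median of all genes, which it raised to 0.34. *Robo1*, a Slit receptor needed for clustering of neuroendocrine cells and also present in mesenchyme, stood at 143 to 164 CPM in the 4 controls and at 113 to 131 CPM in the TO lungs. The groups did not overlap, and the log2 fold change was -0.32 (SE 0.11; unadjusted p 0.0160, adjusted p 0.907 in edgeR). *Robo2* was at -0.27 (SE 0.14), without overlap with any control. *Piezo2*, a stretch-gated channel, was at -0.31 (SE 0.13) and overlapped control 3.

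**Figure D4:**
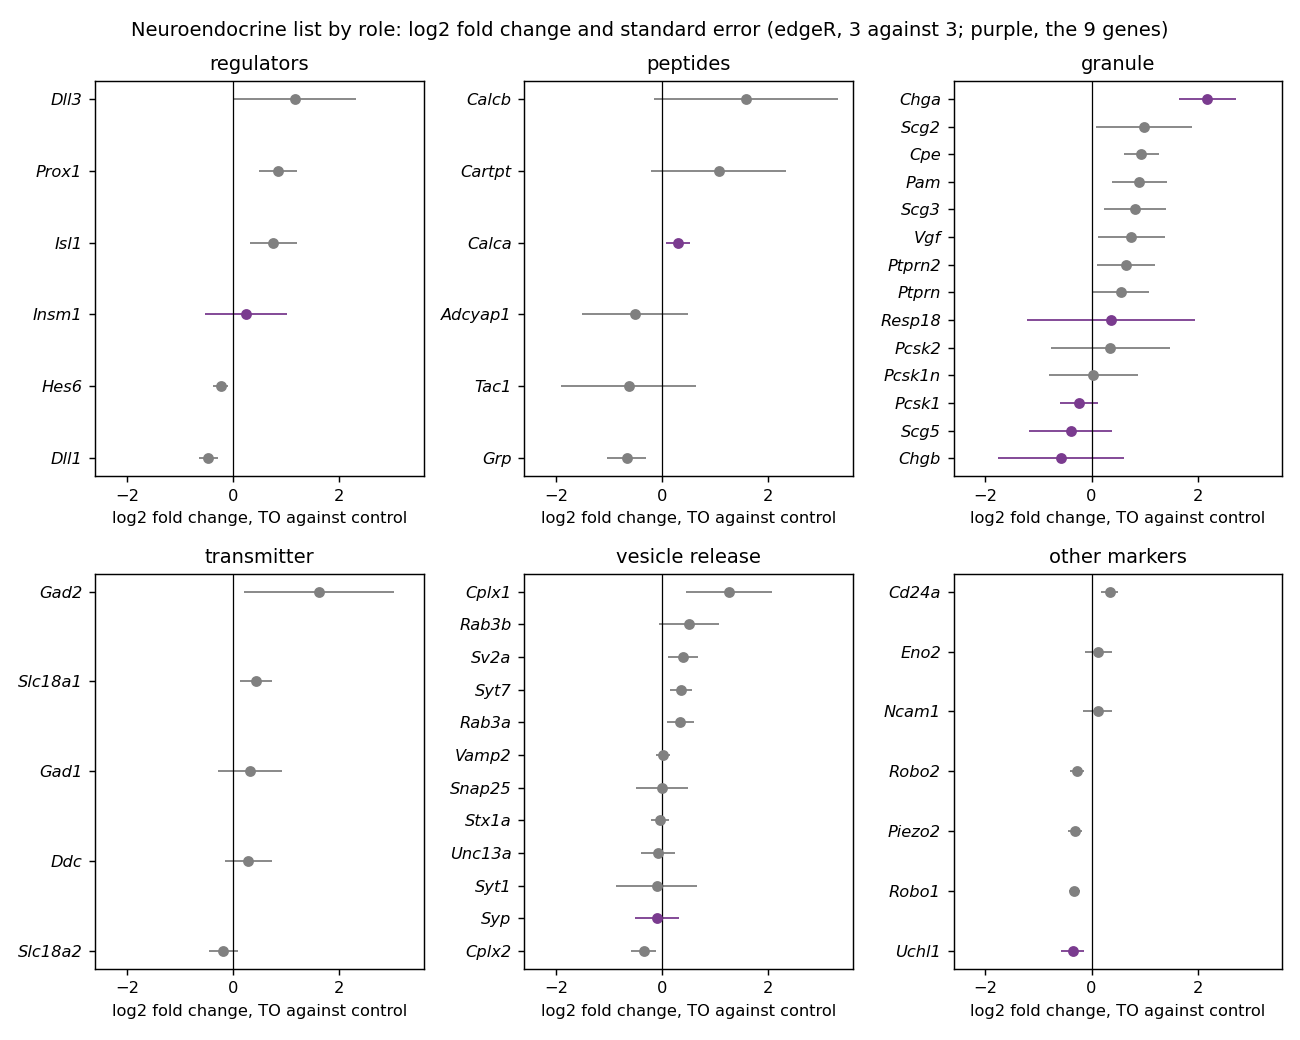
Log2 fold change of TO against control with its standard error (horizontal axes) for the tested genes of the neuroendocrine list (1 gene not drawn), grouped by role in 6 panels, with the 9 genes in purple. Chga lay farthest to the right of the granule genes at 2.18, while Pcsk1, Scg5 and Chgb of the same panel lay below 0.

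Other cell types that share these genes were read from their own marker lists. Of 17 tested autonomic neuron genes, 14 had a log2 fold change above 0 (median 0.59). The list of 18 summed to 41.4 to 63.4 CPM in the 4 controls and 49.2 to 76.1 CPM in the TO lungs, and 1 gene had an unadjusted p under 0.05. Its most abundant genes were the axonal and growth cone genes *Gap43* at -0.28 (SE 0.30), *Prph* at 0.65 (SE 0.36) and *Stmn2* at 0.03 (SE 0.24) on the log2 scale. TO 2 and TO 4 were the highest libraries of this list, and TO 3 and TO 2 were the highest for *Chga*. The part of neuron RNA in the *Chga* values was not tested. Of 5 tested Schwann cell genes, 4 were above 0, with sums of 185 to 290 CPM in controls and 180 to 215 CPM in TO lungs, and *Foxd3* was at 0 in all. Of the islet and adrenal list, *Ins1*, *Ins2*, *Gcg* and *Pdx1* were at 0 in all libraries.

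General epithelial genes lay on the other side of 0 from *Calca* and *Chga*. With TMM scaling, all 8 genes of the epithelium list were below 0 (median -0.27), with sums of 1995 to 2434 CPM in the 4 controls and 1739 to 1969 CPM in the TO lungs. Its leading gene, *Nkx2-1*, the lung epithelial identity factor, was at -0.20 (SE 0.16). Of the 8 genes, edgeR called 0, and 2 had an unadjusted p under 0.05, against 5.14% of all genes tested. The tested groups did not overlap for 2 of the 8, lower in TO, against 5.81% of all genes. With all 8 libraries 5 of the 8 had an unadjusted p under 0.05 in edgeR, against 2.35% of all genes. All 8 airway secretory, ciliated and basal genes were above 0 (median 0.36), with sums of 911 to 1347 CPM in controls and 950 to 2220 CPM in TO lungs. Scaling the libraries to the epithelium list raised the median of all genes by 0.34 on the log2 scale. Relative to that shift, *Calca* at 0.63 and *Chga* at 2.55 kept about the same distance from other genes. Whether the share of any of these cells bears on the neuroendocrine values was not tested.

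**Figure D5:**
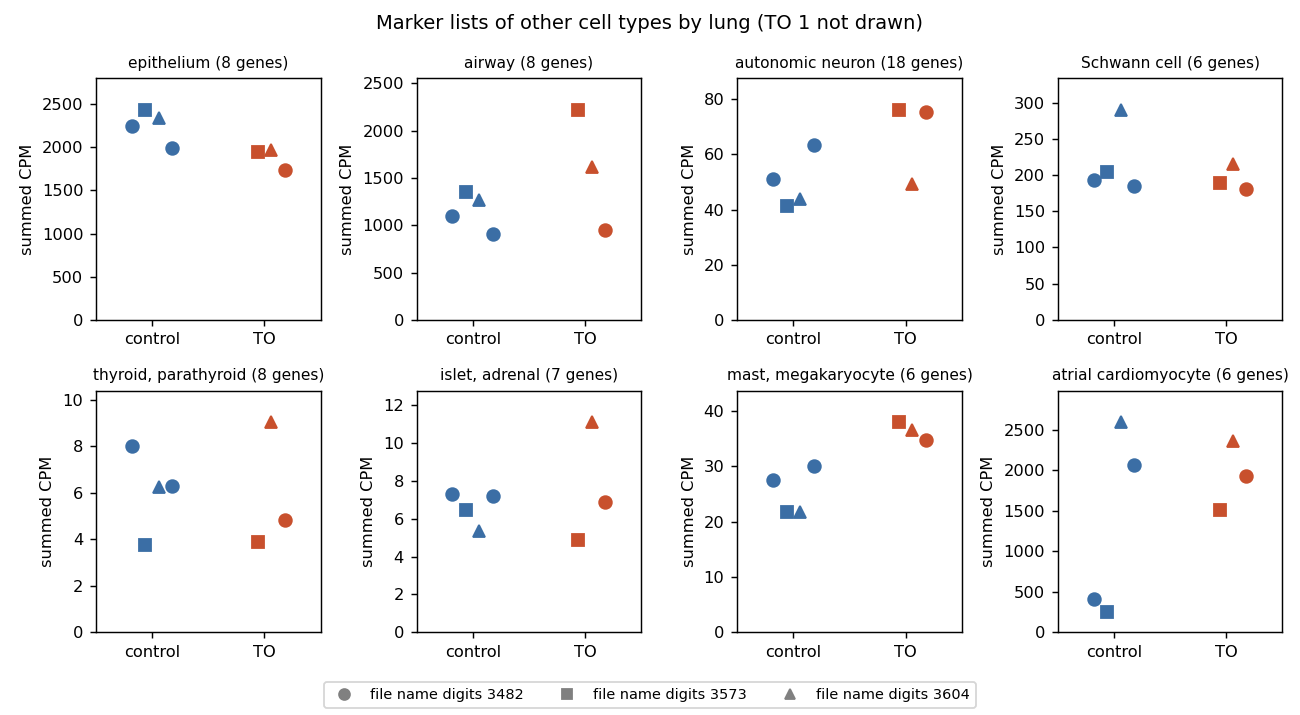
Summed CPM of 8 marker lists of other cell types (vertical axes, from 0) in the 4 control and 3 deep TO lungs, with marker shape for shared file name digits. The atrial list was low in controls 1 and 2, and the mast and megakaryocyte list lay above all controls in the TO lungs.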

How the data were processed

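The authors prepared NexteraXT libraries from lung RNA and sequenced them on both ends. They used STAR with GRCm38 (mm10), of a version and annotation not given in the sources used here, and deposited unnormalized counts for each gene, from which the column that ignores strand was taken. Symbols, positions and exon lengths came from GENCODE M21, with 55144 of 55385 identifiers matched without version.

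The filter kept genes that reached 5 reads in any 3 of the 6 libraries. These 21859 genes were tested with edgeR 4.0.16 (quasi-likelihood test, TMM, Benjamini-Hochberg adjustment over all of them, threshold 0.1) in R 4.3.3, and standard errors come from that fit. CPM used TMM factors of all 8 libraries, and log2 CPM a prior count of 2. Alternatives were DESeq2 1.42.0, limma-voom (limma 3.58.1), other scaling, filters, sets of libraries and blocks. Scripts were tested on simulated data with 200 of 20668 genes changed by a log2 fold change of 2, up or down, at the same threshold. The changed genes were drawn from those above a minimum mean count. DESeq2 recovered 165 of the changed genes with 65 false calls, and edgeR 144 with 23. These counts do not give the recovery of smaller changes or of genes with few reads. Figures and exact permutation tests used Python 3.11.15, scipy 1.17.1 and matplotlib 3.10.9.

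The 9 genes and the lists were chosen with earlier results of these data known. The text names all 9 genes. Of the wider list it names the 3 most abundant genes per role, called genes and those whose groups did not overlap, and of other lists the 3 most abundant at most and those at 0. It also names the 5 nearest patterns. *Tph1* and the antisense genes were named after their values were seen. Of the wider list, 1 gene is not reported here by itself and stays in the counts.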

Additional observations from a re-analysis of the deposited data

Results flagged for a closer look

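In groups of 4 libraries, the lowest or highest library was set against the others by Dixon's ratio of gap to range at its usual critical value. Of 18 groups, 3 held a library past it, and chance gives about 1 in 20. *Calca* in control 2, at 4.840 CPM, stood below the other controls at 5.28 to 5.30 CPM, a gap similar to the counting SD of that library (0.397 CPM). *Chga* in control 3, at 1.781 CPM from 53 reads, stood above the other controls at 0.526 to 0.682 CPM. *Chgb* in TO 1, at 3.443 CPM, is a single read of the shallow library and stood above the other TO lungs at 0.376 to 0.710 CPM.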

How the results depend on the processing

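Of 165 log2 fold changes of the 9 genes under 19 alternatives, 140 kept their direction. *Calca* and *Chga* kept theirs in all, and no other gene of the 9 did. Leaving out any of the 6 tested libraries could not turn either gene, since their TO lungs all lay above the tested controls. The count called, 0, became 1 (*Chga*) with DESeq2, for the 9 genes and for the wider list. Leaving out each library in turn gave 0 to 1 for the 9 genes and 0 to 2 for the wider list. *Chga* was called without TO 4, where 144 of all 20801 genes were. *Cpe* and *Pam* were called without control 4, where 52 of all 21094 genes were. The median of the 9 genes, -0.11, was 0.25 with scaling to the epithelium list. The values that turned were as follows. limma-voom gave *Chgb* 1.29. Epithelial scaling gave *Syp* 0.25 and *Pcsk1* 0.11, and put 18410 of 21859 genes above 0. All 8 libraries gave *Syp* 0.16 and *Scg5* 0.060, and 7 libraries *Syp* 0.025. Controls 3 and 4 against TO 2, 3 and 4, chosen after seeing the data, gave *Syp* 0.080, *Uchl1* 0.080, *Insm1* -0.41, *Scg5* 0.29 and *Pcsk1* 0.12. Leaving out each library gave *Chgb* -1.16 to 0.75, *Syp* -0.36 to 0.12, *Insm1* -0.74 to 0.71 and *Scg5* -1.18 to 0.051. *Resp18* passed the filter in 3 of these 6 fits, at -0.22 to 0.94. The cause of these turns was not tested.

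No source says what the replicate numbers share. Same-numbered libraries correlated in their deviations from the group means at 0.0826 for the pair with the shallow TO 1 and at 0.107, 0.180 and 0.241 for the others, so not every pair passed 0.1 and the numbers were not taken to pair the samples. The 6 pairs with the same file name digits were all above 0 (0.0745 to 0.241) and the other 10 were below 0, a hint from the data and not from the design. The replicate block over 6 libraries called 3 genes of the wider list (*Prox1*, *Cpe* and *Pam*) and none of the 9. It gave a median of 0.27 for the 9 and *Chgb* at 0.80. Among these 6 libraries, control 1 and TO 3 had no partner of the same number. The TO effect in that fit therefore rested on control 2 with TO 2 and control 4 with TO 4 alone. Over all 8 libraries the replicate block gave a median of 0.23, *Chgb* 1.08, *Syp* 0.12 and *Scg5* 0.071. The block by file name digits gave a median of 0.25, *Chgb* 1.05, *Syp* 0.16 and *Uchl1* 0.011.

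Over all genes, edgeR called 0 in the 6 libraries, against 44 with DESeq2 and 40 without a filter. There were 52 without control 4, 144 without TO 4 and 4 with epithelial scaling. The replicate block called 219 over 6 libraries and 3 over 8. The 219 rested on control 2 with TO 2 and control 4 with TO 4 alone. None of the 9 genes had an exact permutation p under 0.05 with 6, 7 or 8 libraries, and only the last design allows one (smallest p 0.0286). TO 1 held 0 to 4 reads of each of the 9 genes.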
